A study of Mus musculus with 30 samples.

Results

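The 9 genes described here encode enzymes of serine synthesis (Psat1, Psph), serine and glycine interconversion (Shmt1, Shmt2), mitochondrial folate metabolism (Mthfd2), the methionine cycle (Mat1a, Gnmt) and transsulfuration (Cbs, Cth). They were chosen by symbol, as the probe sets that the platform annotation assigns to 1 of these genes, which gave 10 probe sets (2 for Shmt2 and 1 for each other gene) of the 28815 on the array, or 9 of 18781 genes measured. Serine is made from a glycolytic intermediate by Phgdh, Psat1 and Psph in turn, and serine hydroxymethyltransferases pass a carbon unit from serine to folate and leave glycine. The methionine cycle uses such units to restore methionine from homocysteine, and Mat1a, the liver form of methionine adenosyltransferase, turns methionine into the methyl donor S-adenosylmethionine. Transsulfuration leads homocysteine away from the cycle: Cbs joins it with serine to cystathionine, which Cth cleaves to cysteine, the precursor of glutathione and hydrogen sulfide, and liver is well known for high activity of both steps.

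Male C57Bl/6 mice (C57Bl/6 J in the methods of the study) aged 10 to 12 weeks on a chow diet were either fed ad libitum or left without food for 24 h, and RNA was taken from the epididymal fat pad (white adipose tissue, WAT), from liver (LIV) and from skeletal muscle of the thigh (SM). Each of the 6 groups held 5 arrays of 5 mice. The methods name 5 fasted and 5 fed mice in all, so that the WAT, LIV and SM arrays of a diet come from the same animals, and the mice carried no transgene or other treatment that the labels name. The comparison asks how transcripts of each tissue differ between fasted and fed mice. Levels are log2 values from robust multi-array average (RMA) normalization, in which a difference of 1 is a doubling, and a difference between groups is called at a limma adjusted p under 0.05 and a size of at least 1.3-fold (0.379 on the log2 scale). RMA gives all arrays nearly the same distribution of values, so a change in total mRNA would not be seen, and in bulk tissue fewer cells of a type and less RNA per cell cannot be told apart.

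Fed LIV 4 and fasted SM 5 were left out, which leaves 4 arrays in each of these groups. Fasted SM 5 had a mean of 8.03 over 7 lymphocyte markers against 3.88 to 4.12 on the other SM arrays, and it and fed LIV 4 had mean correlations of 0.98 and 0.987 with the other arrays of their groups. The tissues matched their labels by marker genes: the mean of 9 hepatocyte markers was 12.11 to 12.26 in LIV and at most 5.05 elsewhere, that of 12 muscle fibre markers 12.45 to 12.59 in SM and at most 5.24 elsewhere, and that of 7 adipocyte markers 11.48 to 12.23 in WAT. SM also held adipocyte transcripts, with a mean of 7.57 to 9.81 against 5.11 to 5.66 in LIV, and fasted SM 4 stood apart in hepatocyte transcripts (5.05 against 4.03 to 4.45 on the other SM arrays).

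RefSeq promoter windows (GRCm38.p6, from 250 bases before to 50 after a start site) were found for 7 of the 9 genes, 8 windows in all because Psat1 has 2. Cth and Mat1a had no entry. Those of 4 genes that changed in fasted WAT are shown, Psph and Mthfd2, which fell, and Shmt1 and Cbs, which rose, all on the minus strand and written 5′ to 3′ along the gene. Capitals mark matches, on either strand, to the letters CCAAT (read as ATTGG on the other strand) or, near the 5′ end of the Cbs window, CACGTG.
Psph, chr5:129787204-129787503: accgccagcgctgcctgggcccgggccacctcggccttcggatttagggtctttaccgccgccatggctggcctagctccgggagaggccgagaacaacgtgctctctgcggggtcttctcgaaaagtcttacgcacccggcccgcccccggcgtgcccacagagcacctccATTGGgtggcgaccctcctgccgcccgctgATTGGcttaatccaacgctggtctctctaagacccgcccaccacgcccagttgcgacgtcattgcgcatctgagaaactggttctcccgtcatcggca
Mthfd2, chr6:83317555-83317854: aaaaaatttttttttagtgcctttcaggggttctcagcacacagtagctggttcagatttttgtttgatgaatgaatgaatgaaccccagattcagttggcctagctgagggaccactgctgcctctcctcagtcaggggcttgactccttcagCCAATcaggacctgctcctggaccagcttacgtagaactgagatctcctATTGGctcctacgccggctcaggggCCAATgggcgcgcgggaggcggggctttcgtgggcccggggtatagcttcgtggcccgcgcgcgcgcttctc
Shmt1, chr11:60811216-60811515: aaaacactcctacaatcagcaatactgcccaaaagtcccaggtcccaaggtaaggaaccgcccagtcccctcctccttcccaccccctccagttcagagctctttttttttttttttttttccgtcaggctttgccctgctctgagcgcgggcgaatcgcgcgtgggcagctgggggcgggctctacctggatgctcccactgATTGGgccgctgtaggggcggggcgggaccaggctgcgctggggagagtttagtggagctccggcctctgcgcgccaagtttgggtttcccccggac
Cbs, chr17:31637156-31637455: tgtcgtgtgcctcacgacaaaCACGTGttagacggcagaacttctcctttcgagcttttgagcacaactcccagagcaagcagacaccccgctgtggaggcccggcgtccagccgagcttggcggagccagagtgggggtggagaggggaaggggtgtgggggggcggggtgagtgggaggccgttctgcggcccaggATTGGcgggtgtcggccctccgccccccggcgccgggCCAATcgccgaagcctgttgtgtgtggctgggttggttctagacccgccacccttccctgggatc

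The letters CCAAT, the core of the NF-Y binding motif, were in 6 of the 8 windows, and in 37.4% of all 32851 mouse windows of this length. They occurred 3 times in the Mthfd2 window and in one of the Psat1 windows, 2 times in those of Psph and Cbs, and 1 time in those of Shmt1 and Gnmt. They thus stood in windows of genes that fell (Psph, Mthfd2) and of genes that rose (Shmt1, Cbs) in fasted WAT. The Shmt2 window and the other Psat1 window held no match, and both of these genes fell in fasted WAT as well. CACGTG, an E-box, was in 1 of the 8 windows (Cbs) and in 7.15% of all windows. TGATGNAA, the C/EBP-ATF composite element, and TGACGTCA, the cAMP response element, were in 0 of the 8 windows, against 3.97% and 1.79% of all windows. The GC content was 42.7% in the Shmt2 window and 55.7% to 66.7% in the other 7, beside a median of 52.7% over all windows.

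In fed mice, 6 of the 9 genes were higher in LIV than in both other tissues. Mat1a had a mean of 12.63 ± 0.02 (SD, n = 4) in fed LIV, above 99.8% of the probe sets, and means of 3.73 ± 0.16 in WAT and 4.14 ± 0.19 in SM (n = 5 each), above 29.6% and 37.3% of them. Gnmt, which methylates glycine with S-adenosylmethionine, was at 12.34 ± 0.03 in LIV, 4.98 ± 0.16 in SM and 4.07 ± 0.12 in WAT. Cbs was at 11.34 ± 0.04 in LIV, 6.33 ± 0.20 in WAT and 4.81 ± 0.18 in SM, and Cth at 11.80 ± 0.08, 7.24 ± 0.23 and 6.49 ± 0.32 in the same order. Both transsulfuration enzymes were thus higher in WAT than in SM, by 1.52 (adjusted p = 2.70e-10) for Cbs and by 0.75 (adjusted p = 1.37e-04) for Cth. The serine hydroxymethyltransferases were lower in WAT than in SM: Shmt1, the cytosolic form, was at 10.09 ± 0.15 in LIV, 7.23 ± 0.16 in SM and 5.72 ± 0.20 in WAT, and Shmt2, the mitochondrial form, at 10.59 ± 0.12, 7.94 ± 0.09 and 7.21 ± 0.09.

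The remaining 3 genes had no excess in LIV. Psat1, which makes phosphoserine, was at 9.48 ± 0.06 in fed WAT, 5.29 ± 0.58 in SM and 4.04 ± 0.23 in LIV, a fed LIV minus WAT difference of -5.44. Its LIV mean lay above 35.7% of the probe sets, and no level above background was shown there. Psph, which releases serine from phosphoserine, was at 6.53 ± 0.09 in SM, 5.83 ± 0.18 in WAT and 5.81 ± 0.19 in LIV, and its fed LIV minus WAT difference of -0.03 (95% confidence interval -0.24 to 0.19) did not pass. Mthfd2, which oxidizes the folate-bound carbon unit in mitochondria, was at 6.40 ± 0.27 in WAT, 6.12 ± 0.12 in SM and 5.69 ± 0.23 in LIV. The difference between fed WAT and SM did not pass for Mthfd2 (0.28, interval -0.01 to 0.57, adjusted p = 0.0926). For Mat1a it missed the adjusted threshold (-0.42, interval -0.80 to -0.03, adjusted p = 0.0586) and passed without fasted SM 4 (adjusted p = 3.40e-04). Of the 9 genes, 8 were called between fed LIV and fed WAT (39.4% of all probe sets were), 9 between LIV and SM (42.8%), and 7 between WAT and SM (41.7%).

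**Figure D1:**
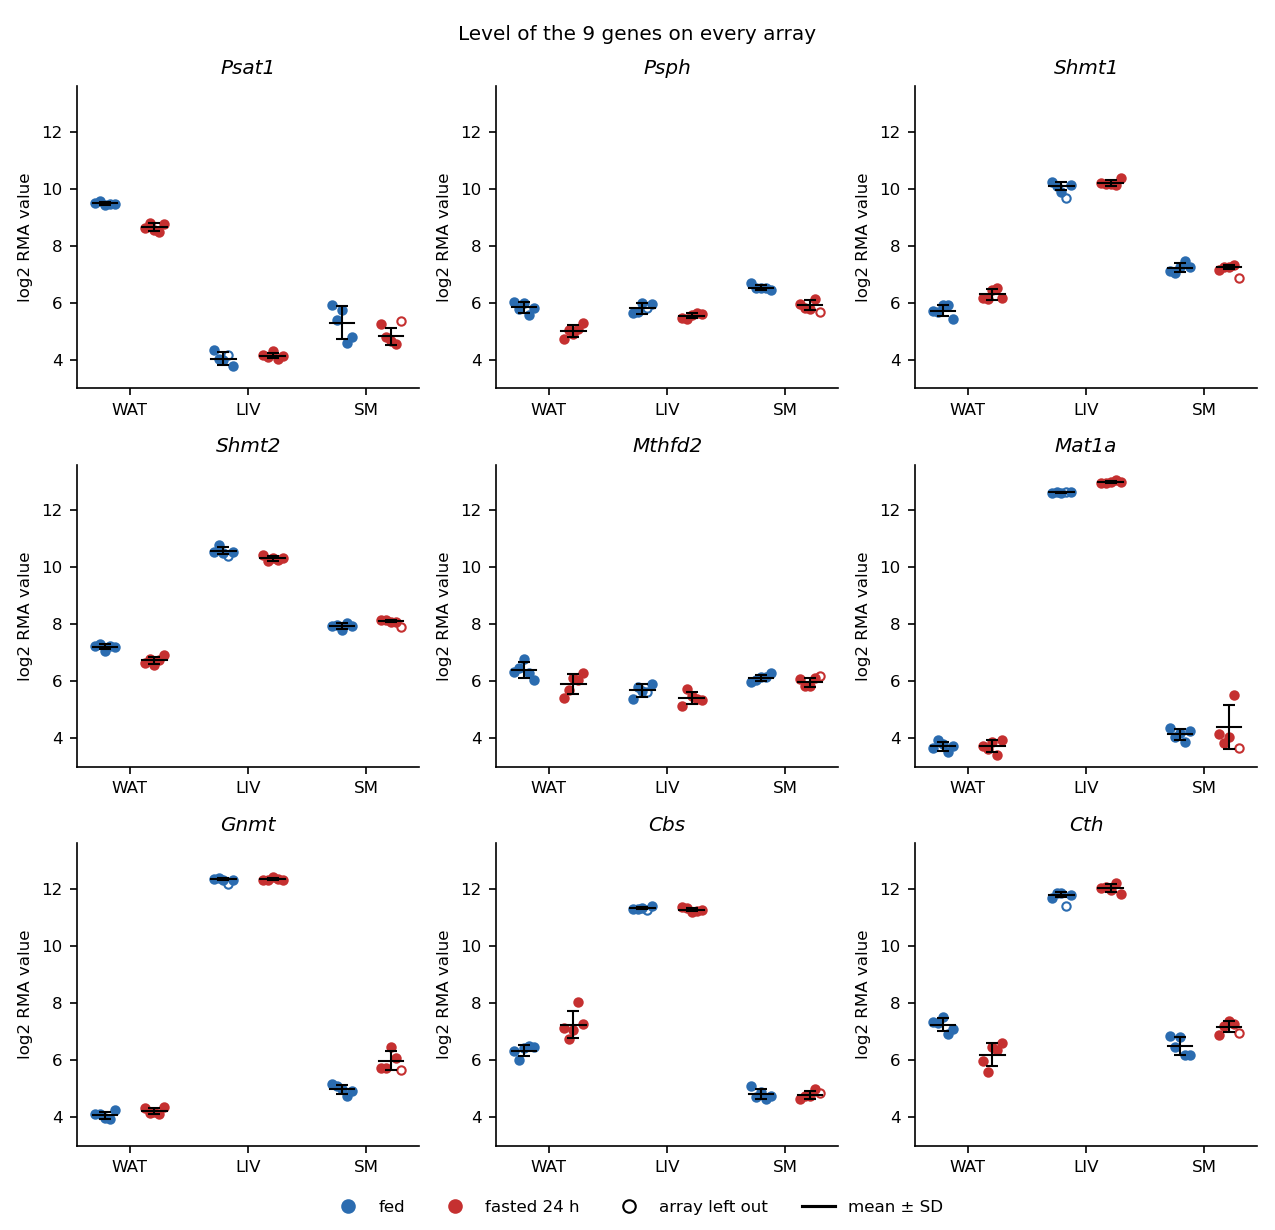
Log2 RMA value (vertical axis) of the 9 genes on every array, by tissue and diet; bars are the mean ± SD of the arrays used, and open circles are the 2 arrays left out. Mat1a, Gnmt, Cbs, Cth, Shmt1 and Shmt2 sit above 9.8 on all LIV arrays used, and Psat1 above 8.4 on all WAT arrays.

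After 24 h of fasting, WAT was the tissue in which 7 of the 9 genes were called, 5 lower (Psat1, Psph, Shmt2, Mthfd2, Cth) and 2 higher (Shmt1, Cbs). In SM 3 were called, Gnmt and Cth higher and Psph lower, and in LIV 0 were called. Over all probe sets, 13.2% were called in WAT (6.93% up and 6.23% down), 11.9% in SM (6.35% up and 5.52% down) and 6.55% in LIV (3.12% up and 3.43% down). The median change of the 9 genes was -0.48 in WAT, 0.01 in SM and 0.01 in LIV, beside 0.0114, -0.00421 and 0.0256 over all probe sets. By limma, 2 genes had an unadjusted p under 0.05 in LIV (Psph and Shmt2). The adipocyte marker mean was 12.02 to 12.23 in fed and 11.48 to 12.00 in fasted WAT, with 1 of 7 markers called lower (Lep), and the mean of 11 macrophage markers was 8.30 to 8.49 in fed and 8.33 to 8.92 in fasted WAT, with 3 called higher (Cd14, Cd163, Mpeg1). Their part in the WAT changes was not tested. Fasted and fed arrays did not overlap for 6 genes in WAT (18.0% of all probe sets), 4 in SM (19.4%) and 2 in LIV (14.6%).

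**Figure D2:**
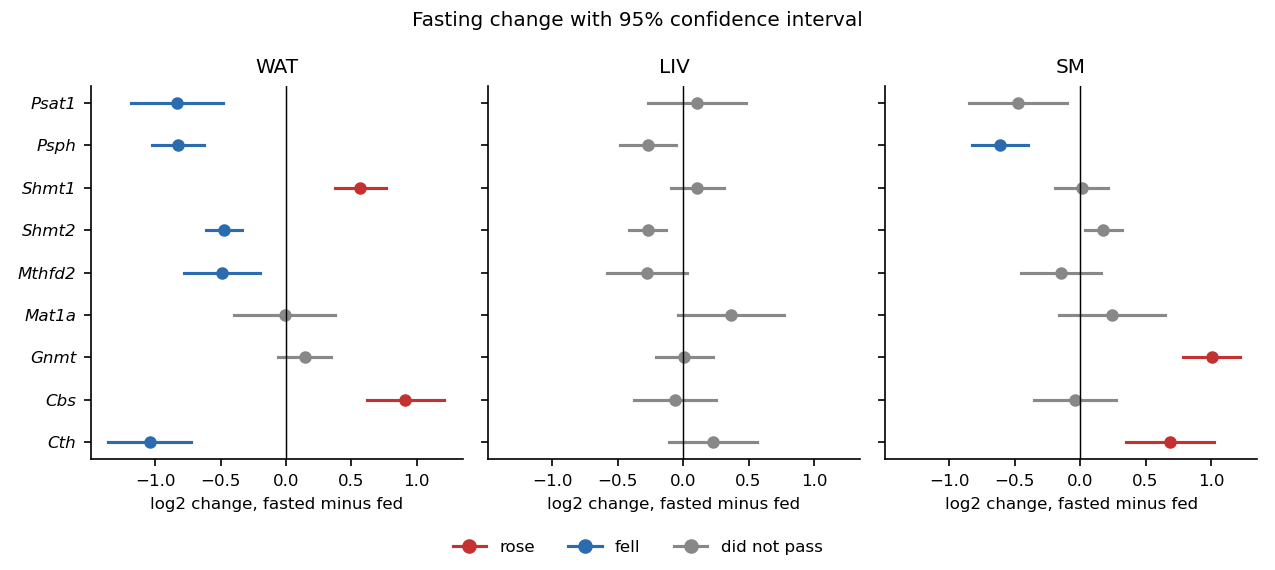
Log2 change, fasted minus fed (horizontal axis), with its 95% confidence interval from limma for the 9 genes in WAT, LIV and SM; red and blue mark called rises and falls, and grey marks changes that did not pass. In WAT 7 genes are coloured, in SM 3 and in LIV 0.

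The serine synthesis genes were lower in fasted WAT. Psat1 was at 9.48, 9.57, 9.42, 9.45 and 9.47 in fed WAT and at 8.63, 8.79, 8.56, 8.47 and 8.77 in fasted WAT. All fasted arrays lay below all fed ones, and the change was -0.84 (SE 0.17, 1.78-fold, adjusted p = 4.67e-04). Psph was at 6.01, 5.76, 6.00, 5.57 and 5.82 in fed and at 4.72, 5.05, 4.91, 5.07 and 5.29 in fasted WAT. These groups did not overlap either, and the change was -0.83 (SE 0.10, 1.77-fold, adjusted p = 2.46e-07). Phgdh, which starts the pathway and was singled out after its values were seen, fell by 0.57 in WAT (adjusted p = 0.0103) by its brightest probe set, while its other probe sets gave -0.44 (adjusted p = 0.157) and 0.06 (adjusted p = 0.867), so they disagree.

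In SM, Psph was at 6.68, 6.50, 6.51, 6.52 and 6.43 on the fed and at 5.94, 5.81, 5.78 and 6.13 on the fasted arrays. The groups did not overlap, and the change was -0.61 (SE 0.10, 1.53-fold, adjusted p = 5.79e-05). Psat1 varied far more among fed SM arrays, at 5.91, 5.40, 5.74, 4.58 and 4.81, against 5.23, 4.79, 4.67 and 4.56 on the fasted ones, and its change of -0.47 did not pass (interval -0.85 to -0.10, adjusted p = 0.0642). Of 47 alternatives 41 left this change uncalled, such as all 30 arrays (-0.37, adjusted p = 0.161) and the removal of fed SM 1 (-0.32, adjusted p = 0.206). Many of the 41 say little, because removing a WAT or LIV array leaves the size of the change at -0.47. The other thresholds also cannot call a change with this adjusted p, so the call depends on which SM arrays are used. The other 6 called it. They included the removal of fed SM 4 (-0.65, adjusted p = 0.00391), of fed SM 5 (-0.59, adjusted p = 0.0200) or of fasted SM 1 (-0.61, adjusted p = 0.0206). Another was the replicate number as a block (-0.59, adjusted p = 0.00380), which joins fed and fasted arrays of different mice. The mean of the adipocyte markers on the same fed SM arrays was 9.81, 9.03, 9.51, 7.57 and 8.17, the order of Psat1, and on the fasted ones 8.58, 8.14, 8.19 and 7.58, which is not its order. Of the 7 markers, 3 were called lower in fasted SM (Plin1, Lep, Retn), with a median change of -0.67 over the list. In a fit of SM alone the Psat1 change was -0.47 (adjusted p = 0.249). With the adipocyte mean as a covariate it was -0.04 (adjusted p = 0.812), while the Psph change was -0.60 (adjusted p = 0.00207). Some of these markers were themselves lower after fasting, Lep in WAT too, so this covariate cannot separate fat content from diet. With slow fibre markers as the covariate the Psat1 change was -0.65 and called (adjusted p = 0.0416), and it was also called in the model of all tissues with dim probe sets left out (adjusted p = 0.0433). In LIV the Psat1 change was 0.11 (interval -0.27 to 0.48) and the Psph change -0.27 (interval -0.48 to -0.05, adjusted p = 0.0922), neither called.

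**Figure D3:**
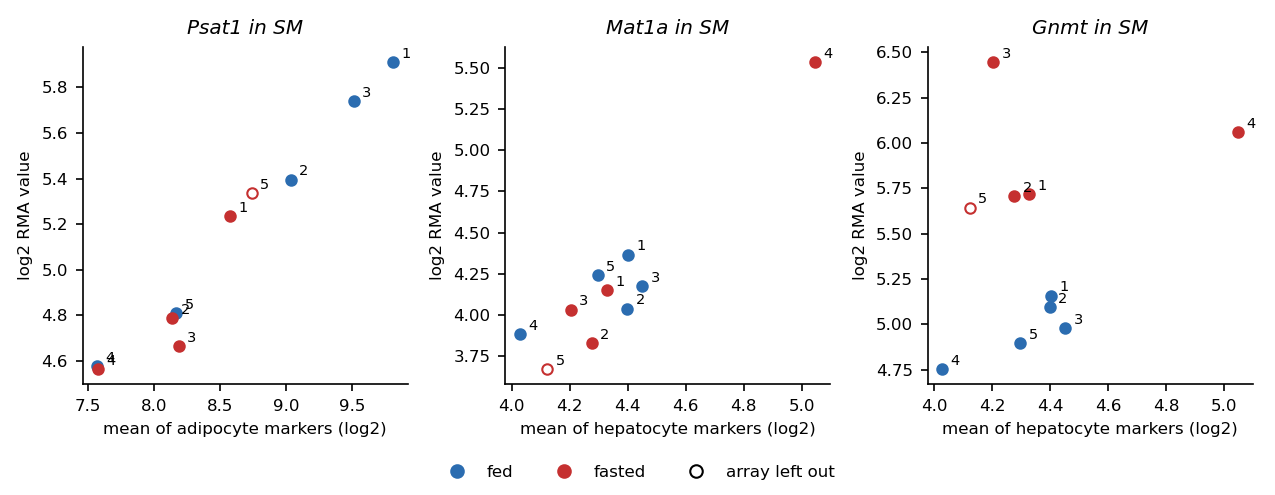
Log2 RMA value of Psat1, Mat1a and Gnmt on each SM array (vertical axes) against the mean log2 value of adipocyte or hepatocyte markers on the same array (horizontal axes). Numbers are replicate numbers within a group, and open circles are the array left out. Psat1, from 4.56 to 5.91, has the order of the adipocyte mean on the fed arrays but not on the fasted ones, Mat1a is at 5.53 on fasted SM 4 and at most 4.37 on the others, and all fasted arrays lie above all fed ones in Gnmt.

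The serine hydroxymethyltransferases moved in opposite directions in WAT. Shmt1 was at 5.69, 5.66, 5.91, 5.90 and 5.43 in fed and at 6.17, 6.13, 6.46, 6.52 and 6.16 in fasted WAT. The groups did not overlap, and Shmt1 rose by 0.57 (SE 0.09, 1.48-fold, adjusted p = 3.11e-05). Shmt2 was at 7.23, 7.30, 7.06, 7.25 and 7.19 in fed and at 6.65, 6.77, 6.57, 6.74 and 6.93 in fasted WAT. It did not overlap either and fell by 0.48 on the log2 scale (SE 0.07, adjusted p = 2.54e-06). A second, dim Shmt2 probe set (4.12 and 4.02 in fed and fasted WAT) changed by -0.10 (adjusted p = 0.569), and an average of both no longer passed the fold limit (-0.29).

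Outside WAT the Shmt2 changes were small. In LIV it was at 10.54, 10.77, 10.52 and 10.52 on the fed and 10.43, 10.23, 10.34, 10.24 and 10.32 on the fasted arrays. The groups did not overlap, but the change of -0.27 (SE 0.07, adjusted p = 0.00841) was under 1.3-fold, and the array left out, at 10.39, lies within the fasted range. In SM it was at 7.92, 7.98, 7.79, 8.04 and 7.95 on the fed and 8.15, 8.14, 8.10 and 8.07 on the fasted arrays, a change of 0.18 (adjusted p = 0.0710). The fasted array left out, at 7.90, lies within the fed range. Shmt1 changed by 0.11 in LIV (interval -0.10 to 0.31) and by 0.01 in SM (interval -0.19 to 0.22).

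Mthfd2 was at 6.34, 6.48, 6.79, 6.31 and 6.06 in fed and at 5.40, 5.70, 6.11, 6.03 and 6.30 in fasted WAT. The groups overlapped, and it fell by 0.49 on the log2 scale (SE 0.14, adjusted p = 0.00985). The call was lost without fasted WAT 1 (-0.36, adjusted p = 0.0487, under 1.3-fold) and with WAT fitted alone (adjusted p = 0.0527). Mthfd2 is known as high in dividing cells, and the mean of 7 measured proliferation markers was 4.77 to 5.18 in fed and 4.17 to 4.59 in fasted WAT, with 4 of the 7 called lower (Mki67, Top2a, Aurkb, Ccna2). Their part in the Mthfd2 change was not tested. In LIV the change was -0.28 (interval -0.58 to 0.03) and in SM -0.15 (interval -0.46 to 0.16).

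Gnmt rose in SM. It was at 5.16, 5.10, 4.98, 4.75 and 4.90 on the fed and at 5.72, 5.71, 6.44 and 6.06 on the fasted SM arrays. All fasted arrays, including the one left out (5.64), lay above all fed ones, and the change was 1.00 (SE 0.11, 2.01-fold, adjusted p = 4.18e-08). The change was 0.98 (adjusted p = 6.26e-07) without fasted SM 4, the array with hepatocyte transcripts. In a fit of SM alone it was 1.00 (adjusted p = 6.49e-04). With adipocyte markers as a covariate in that fit it was 1.08 (adjusted p = 0.00149). With slow fibre markers, whose mean ran from 5.39 to 10.21 over the SM arrays, it was 0.95 (adjusted p = 0.00126). In LIV, where the Gnmt transcript is abundant, the fed mean of 12.34 and the fasted mean of 12.35 differed by 0.01 (interval -0.21 to 0.23). In WAT the change was 0.14 (interval -0.06 to 0.35).

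Mat1a was at 12.61, 12.63, 12.62 and 12.65 in fed LIV and at 12.96, 12.97, 12.98, 13.07 and 13.00 in fasted LIV. The groups did not overlap and were tight, yet the change of 0.37 (1.29-fold) did not pass in the model of all tissues (SE 0.20, interval -0.04 to 0.77, adjusted p = 0.256) and lay under 1.3-fold. With LIV fitted alone its adjusted p was 8.70e-04, and without fasted SM 4 it was 0.0121. That array was at 5.53 for Mat1a against 3.83 to 4.15 on the other fasted SM arrays, beside its hepatocyte mean of 5.05, and the model shares 1 estimate of the spread over all groups. In SM the Mat1a change was 0.24 (interval -0.16 to 0.65) and in WAT -0.01 (interval -0.40 to 0.37).

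The transsulfuration enzymes moved apart in WAT, Cbs up and Cth down. Cbs was at 6.31, 6.00, 6.43, 6.49 and 6.44 in fed and at 7.12, 6.74, 7.06, 8.02 and 7.28 in fasted WAT. The groups did not overlap, and Cbs rose by 0.91 (SE 0.14, 1.88-fold, adjusted p = 1.66e-05). Fasted WAT 4, at 8.02, had a mean of 11.48 over the adipocyte markers, the lowest of the WAT arrays, and the change without it was 0.72 (adjusted p = 7.05e-06). Cth was at 7.34, 7.31, 7.51, 6.92 and 7.10 in fed and at 5.97, 5.59, 6.44, 6.36 and 6.60 in fasted WAT. These did not overlap, and Cth fell by 1.04 on the log2 scale (SE 0.16, 2.06-fold, adjusted p = 7.22e-06).

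In SM, Cth moved the other way. It was at 6.83, 6.47, 6.80, 6.16 and 6.18 on the fed and at 6.89, 7.18, 7.36 and 7.27 on the fasted arrays, a rise of 0.69 (SE 0.16, 1.61-fold, adjusted p = 0.00258) with no overlap. On the fed arrays Cth, like Psat1, had the order of the adipocyte mean, and on the fasted ones it did not. In a fit of SM alone the rise was 0.69 (adjusted p = 0.00927). With covariates in SM alone the rise was 0.86 (adjusted p = 0.00208) for adipocyte markers and 0.59 (adjusted p = 0.0103) for slow fibre markers. With all 30 arrays the rise was 0.64 (adjusted p = 0.00363). Cbs in SM was near the middle of all probe sets and changed by -0.04 (interval -0.35 to 0.27). In LIV, Cbs changed by -0.06 (interval -0.38 to 0.25) and Cth by 0.23 (interval -0.11 to 0.57).

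The changes themselves were compared between tissues, in 27 tests over the 9 genes. Each pair of these comparisons shares the arrays of a tissue, and the tissues share mice, which the model treats as independent. Between WAT and LIV, 5 genes differed (13.5% of all probe sets did): Cth by -1.27 (adjusted p = 1.64e-04), Cbs by 0.97 (adjusted p = 0.00129), Psat1 by -0.94 (adjusted p = 0.00836), Psph by -0.56 (adjusted p = 0.00631) and Shmt1 by 0.46 (adjusted p = 0.0184). Between WAT and SM, 5 differed (12.8%): Cth by -1.73 (adjusted p = 3.00e-06), Cbs by 0.95 (adjusted p = 0.00170), Gnmt by -0.86 (adjusted p = 9.48e-05), Shmt2 by -0.65 (adjusted p = 1.56e-05) and Shmt1 by 0.56 (adjusted p = 0.00453). Between SM and LIV, 2 differed (12.8%), Gnmt by 1.00 (adjusted p = 2.25e-05) and Shmt2 by 0.45 (adjusted p = 0.00180). The WAT minus SM difference of the changes did not pass for Psat1 (-0.36, interval -0.88 to 0.15) or for Psph (-0.21, interval -0.51 to 0.08). With all 30 arrays the Shmt1 difference between WAT and LIV was 0.38 (adjusted p = 0.105) and did not pass. The Shmt2 difference between SM and LIV was then 0.37, under 1.3-fold. With the Shmt2 probe sets averaged, its differences were -0.33 between WAT and SM and 0.15 between SM and LIV, neither called. By the dim Shmt2 probe set alone they were -0.02 and -0.14, also not called.

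Other genes of these pathways came from a list of 57, of which 49 were measured. In fasted WAT 17 were called lower and 2 higher, which is 38.8% of them beside 13.2% of all probe sets, with a median change of -0.12. In LIV 6 were lower and 5 higher (22.4% beside 6.55%, median -0.01), and in SM 6 lower and 3 higher (18.4% beside 11.9%, median -0.16). Of 13 serine and glycine genes, 7 were lower and 0 higher in WAT, with a median of -0.39. The 7 include Phgdh, which was called by its brightest probe set only. Of the glycine cleavage system, Dld (-0.75, adjusted p = 8.08e-09) and Gcsh (-0.44, adjusted p = 4.49e-05) were called lower there, while Gldc (-0.15, adjusted p = 0.129) and Amt (0.09, adjusted p = 0.550) did not pass. Of 13 methionine cycle genes, 5 were lower and 1 higher in WAT, of 13 folate genes 3 were lower and 1 higher, and of 10 cysteine and sulfide genes 2 were lower and 0 higher.

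Gamt, which methylates guanidinoacetate to creatine, fell in WAT from 9.55 to 7.22 (change -2.33, 5.02-fold, adjusted p = 2.13e-13), and also fell by 0.79 in LIV (adjusted p = 1.29e-04) and fell by 0.61 in SM (adjusted p = 0.00105). Ahcy, which splits S-adenosylhomocysteine to homocysteine, the substrate of Cbs, rose in WAT from 7.99 to 9.28 (2.46-fold, adjusted p = 9.22e-13) and in SM by 0.75 (adjusted p = 6.34e-08). Nnmt, which methylates nicotinamide, fell by 1.38 in WAT (adjusted p = 9.51e-05) and fell by 1.37 in SM (adjusted p = 2.62e-04). In a fit of SM alone the Nnmt change was -1.37 (adjusted p = 0.0219). With the adipocyte markers as a covariate in that fit it was -0.82 (adjusted p = 0.0220). In LIV Nnmt was at 10.08 to 10.65 in fed and 11.00 to 11.35 in fasted mice, with no overlap, a change of 0.66 that did not pass (adjusted p = 0.103). In SM, where Cth rose, both subunits of glutamate cysteine ligase, the first step from cysteine to glutathione, rose as well: Gclm by 1.07 (adjusted p = 6.97e-12) and Gclc by 1.06 (adjusted p = 5.02e-10). In LIV, Gclc fell by 0.64 (adjusted p = 7.39e-06).

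Folate carriers moved in several tissues. Slc46a1, the proton-coupled folate transporter, fell in WAT by 0.99 (adjusted p = 7.04e-11), in LIV by 0.40 (adjusted p = 5.73e-04) and in SM by 0.41 (adjusted p = 2.30e-04). Slc19a1, the reduced folate carrier, rose in LIV by 0.71 (adjusted p = 1.85e-06) and fell in WAT by 0.62 (adjusted p = 2.20e-06), and Slc25a32, the mitochondrial carrier, rose in LIV by 0.80 (adjusted p = 1.72e-05) and in WAT by 0.87 (adjusted p = 6.86e-07). Folr2, a folate receptor of macrophages, fell by 0.87 in LIV (adjusted p = 2.34e-04). The mean of 11 macrophage markers was 7.01 to 7.38 in fed LIV and 6.62 to 7.03 in fasted LIV, with 5 called lower, and their part in the Folr2 change was not tested.

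**Figure D4:**
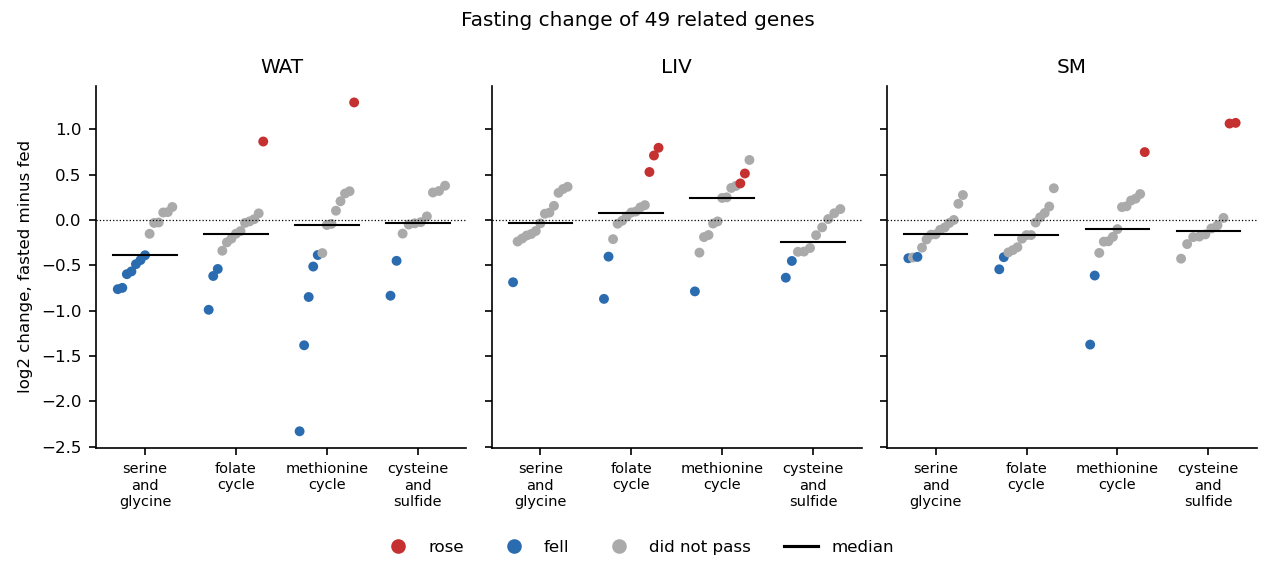
Log2 change, fasted minus fed (vertical axis), of the 49 related genes in WAT, LIV and SM by role; red and blue mark called rises and falls, grey marks changes that did not pass, and the bar is the median. In WAT 17 points are blue and 2 red, and 7 of the 13 serine and glycine genes are blue.

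The genes whose values ran most alike to each of the 9 were taken over the 28 arrays after subtraction of each tissue's mean, so the measure includes the differences between fed and fasted arrays. They were Slc16a7 (r = 0.925) and Pygb (0.915) for Psat1, Srek1ip1 (0.911) and Ostc (0.908) for Psph, Rnf185 (0.850) and Tmie (0.836) for Shmt1, and Map4 (0.890) and Lactb2 (0.879) for Shmt2. For Mthfd2 they were Mrpl19 (0.787) and Rabif (0.783), for Gnmt Nxpe3 (0.910) and Mks1 (0.907), for Cbs 2310001K24Rik (0.929) and Trim29 (0.923), and for Cth Tmem167 (0.889) and Psmd14 (0.856). Mat1a ran most alike with Bhmt (0.865) and Ahsg (0.823), and fasted SM 4, the array with hepatocyte transcripts, is among the 28. These are descriptions over arrays that share tissues and diets.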

How the data were processed

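Biotin-labelled target made from RNA of the 30 samples was hybridised to Affymetrix Mouse Gene 1.1 ST arrays. The authors made the deposited log2 values from the scanned intensities by RMA in Partek (background correction, quantile normalization, median polish), for 28815 probe sets; these values were used as given. The platform annotation names 1 gene for 21153 probe sets, several for 1867 and none here for 5795, and a gene takes its probe set of highest mean. Array medians were 4.915 to 5.156, and 0 arrays were identical.

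Group means of the 6 groups were estimated in 1 linear model by limma 3.58.1 in R 4.3.3 (moderated variances, prior degrees of freedom 4.24), with Benjamini-Hochberg adjustment over all probe sets. Fed LIV 4 and fasted SM 5 were left out, as in an earlier analysis of these data; the study's text names fasted SM 1 instead, which was run as an alternative. The other alternatives were all 30 arrays with or without array weights, no moderation, tissues fitted alone and replicate number as a block. Further ones were mouse as a random block, a filter on dim probe sets, other normalization within tissues, other thresholds and averaged probe sets. Marker means as covariates in SM and the removal of each array were run as well. Added after seeing the data were sets of 29 arrays without fed LIV 4 or without fasted SM 5. Replicate numbers did not pair the samples: deviations of same-numbered fed and fasted arrays correlated at -0.252 to 0.163. The 9 genes, the related genes and the markers were chosen with earlier results of these data known. Named were all 9 genes, the 4 called related genes of greatest change per tissue and the 2 most alike genes of each; others are said to be chosen after their values were seen, or stand as examples of a count or as values of a named gene in another tissue. The procedure was tested on simulated data. Promoters came from RefSeq (GRCm38.p6), and figures from matplotlib 3.10.9 in Python 3.11.15. The precision is limited by the 4 or 5 arrays in a group.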

Additional observations from a re-analysis of the deposited data

Results flagged for a closer look

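In 54 groups of arrays tested, 2 held an array far from the rest of its group, and chance alone gives about 5% of groups. Shmt1 was at 10.37 on fasted LIV 5 against 10.14 to 10.19 on the other fasted LIV arrays, and Shmt2 at 10.77 on fed LIV 2 against 10.52 to 10.54 on the other fed LIV arrays used.

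The fasting change differed between tissues, by the limma test of the difference itself, in 12 of 27 comparisons. The change in WAT minus that in LIV was -0.94 for Psat1, -0.56 for Psph, 0.46 for Shmt1, 0.97 for Cbs and -1.27 for Cth. The change in WAT minus that in SM was 0.56 for Shmt1, -0.65 for Shmt2, -0.86 for Gnmt, 0.95 for Cbs and -1.73 for Cth. The change in SM minus that in LIV was 0.45 for Shmt2 and 1.00 for Gnmt.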

How the results depend on the processing

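Over 81 results on the 9 genes and 3501 alternatives to them, 3467 kept their side of the threshold, 19 lost and 15 gained a call. Of the called results 0 turned direction, while 9 results that were not called changed sign under at least 1 alternative. Many alternatives could hardly move a result. Removing an array of another tissue leaves the size of a change within a tissue as it was, and only the shared spread and the adjustment vary. A stricter threshold cannot add a call, and a looser one cannot remove one. The count of 3467 is therefore no measure of how robust the results are. With no minimum fold, 1 of the 9 genes (Shmt2) was called in LIV, and 20 related genes were called in LIV and 16 in SM. With a minimum of 1.5-fold, 4 of the 9 genes were called in WAT, and 11 related genes in WAT, 6 in LIV and 5 in SM; differences of changes then numbered 3 between WAT and LIV and 1 between SM and LIV. That last count was also 1 with all 30 arrays, and 1 with the probe sets of a gene averaged. With each array left out in turn, the 9 genes gave 6 to 7 calls in WAT, 0 to 0 in LIV and 3 to 4 in SM, and the related genes 18 to 22, 10 to 14 and 7 to 11. The differences of changes gave 5 to 5 calls (WAT and LIV), 5 to 5 (WAT and SM) and 2 to 3 (SM and LIV), and the fed levels 8 to 8 (LIV and WAT), 8 to 9 (LIV and SM) and 7 to 8 (WAT and SM).

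With the replicate number as a block within each tissue, the 9 genes gave 7 calls in WAT, 0 in LIV and 4 in SM. The added call was Psat1 in SM (-0.59, adjusted p = 0.00380), and the block joins fed and fasted arrays of different mice. The mouse as a random block had a correlation of 0.027. Arrays of the same diet and replicate number were taken there as 1 mouse, which the labels do not state. Without fed LIV 1, Mthfd2 no longer differed between fed LIV and fed SM (-0.32, adjusted p = 0.0876). Without fasted SM 4, the Mat1a change in SM minus that in LIV was called (-0.50, adjusted p = 0.0184), and without fed SM 4 that of Psat1 was (-0.76, adjusted p = 0.0188). The fed Mat1a difference between WAT and SM was called without fed WAT 2, fed SM 4, fasted SM 2 or fasted SM 4. The causes were not tested. Mat1a and Gnmt in WAT, Mat1a and Cbs in SM and Psat1 in LIV lay below the median probe set in both diets, as did Gnmt in fed SM, Psat1 in fasted SM and Psph in fasted WAT, and signal over background was not analysed here. At the other end, the mean levels of Mat1a, Gnmt, Cbs and Cth in LIV lay above at least 98.2% of the probe sets. Whether changes are understated at such high levels was not analysed either.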

Other observations

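Bhmt, which returns homocysteine to methionine in liver and was singled out after its values were seen, has 2 probe sets that disagree in the size of the change. The brighter was at 12.32 in fed and 12.67 in fasted LIV (change 0.35, under 1.3-fold, adjusted p = 0.194). Its LIV groups did not overlap (12.21 to 12.45 fed, 12.65 to 12.70 fasted). Its SD was 0.65 in fasted SM, and the model shares 1 estimate of the spread over all groups. The dimmer was at 5.92 in fed and 9.15 in fasted LIV (change 3.22, 9.33-fold, adjusted p = 2.49e-12).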
